A study of Mus musculus with 22 samples.

Results

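A group named for hepatocyte genes that stood higher in liver tumours with β-catenin than in tumours named for p53 was followed tumour by tumour. Its 9 genes were Gulo, Lect2, Pon1, Tbx3, Tnfrsf19, Cmbl, Cml2, Rmdn2 and Laptm4b. They are 9 of 24063 genes in a first set of 12 mouse tumours (set 1) and 9 of 24019 genes in a second set of 10 tumours (set 2), and all 9 were found in both by symbol. They were picked because earlier readings of these same tumours showed them higher with β-catenin, so the contrast between drivers is given for them as a description, without a test. For Tnfrsf19 in both sets and for Laptm4b in set 1, tumours of the drivers overlapped.

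All tumours grew in livers of C57BL/6 mice after hydrodynamic tail-vein injection, a rapid large-volume injection that brings plasmids into hepatocytes, and no treatment was given. Every tumour carried MYC. The tumours with bcat (CTNNB1 in the names of set 2, the gene of β-catenin) are compared with tumours named for p53 (sgp53 in set 2, the usual prefix of a guide RNA). No tumour with MYC alone and no normal liver was among the samples. A gain in bcat tumours and a loss in p53 tumours therefore cannot be told apart. Below, a gene that rose or fell in a driver contrast was higher or lower in bcat than in p53 tumours. Each driver came with lucOS, a luciferase that carries model T cell antigens, or with plain luciferase, luc. Set 1 held 2 lucOS bcat, 4 luc bcat, 3 lucOS p53 and 3 luc p53 tumours, and set 2 held 3 lucOS bcat, 3 luc bcat and 4 lucOS p53 tumours. The labels do not say which promoters drive the constructs or whether each tumour came from its own mouse, so p-values measure only the spread between these samples. In set 2 the p53 tumours 1 to 3 have names starting with AL, while p53 tumour 4 and all 6 bcat tumours have names starting with JAX. What these prefixes stand for is not stated, and apart from that 1 tumour driver and prefix cannot be told apart.

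β-catenin is the transcriptional arm of Wnt signalling: when it escapes its destruction complex it enters the nucleus and works with TCF/LEF factors, which bind DNA motifs of the CTTTGA type. In the liver this pathway is strongest in the hepatocytes around the central vein, where it sets the programme of glutamine synthesis and drug metabolism. The 9 genes are grouped here as other hepatocyte genes, though whole tumours do not show which cells made their RNA. Gulo makes the last step of vitamin C synthesis, an enzyme that rodents have and humans lack. Lect2 and Pon1 encode proteins that hepatocytes secrete. Tbx3 is a transcription factor and Tnfrsf19 a receptor, both reported as Wnt targets outside these data. Cmbl, Cml2, Rmdn2 and Laptm4b encode a hydrolase, a putative acetyltransferase, a microtubule-associated protein and a lysosomal membrane protein.

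The promoters show which of these genes carry a TCF/LEF motif next to their start. RefSeq promoter windows (mouse build GRCm38.p6, from 250 bases before to 50 bases after a start) were at hand for 6 of the 9 genes, 8 windows in all: Lect2, Pon1, Cmbl and Cml2 with 1 start each, and Tnfrsf19 and Rmdn2 with an outer and an inner start. The 3 windows that hold CTTTGA on either strand are printed below over their 250 upstream bases, with the motif in capitals, and Pon1 is printed as a window without it. Lect2 is read from chr13:56548539-56548788, Cml2 from chr6:85869138-85869387, the inner start of Tnfrsf19 from chr14:61037988-61038237 and Pon1 from chr6:5193947-5194196. All 4 lie on the minus strand and are written 5′ to 3′ along the gene, so that CTTTGA on the other strand reads TCAAAG.
Lect2: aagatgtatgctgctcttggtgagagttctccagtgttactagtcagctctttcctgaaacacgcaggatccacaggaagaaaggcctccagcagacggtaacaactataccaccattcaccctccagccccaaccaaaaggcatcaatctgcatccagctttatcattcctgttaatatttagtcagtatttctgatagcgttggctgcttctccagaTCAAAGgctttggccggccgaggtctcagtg
Cml2: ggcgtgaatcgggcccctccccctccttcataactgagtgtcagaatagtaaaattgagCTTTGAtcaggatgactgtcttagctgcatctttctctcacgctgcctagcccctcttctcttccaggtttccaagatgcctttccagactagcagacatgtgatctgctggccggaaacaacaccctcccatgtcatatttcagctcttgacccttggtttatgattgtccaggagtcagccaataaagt
Tnfrsf19: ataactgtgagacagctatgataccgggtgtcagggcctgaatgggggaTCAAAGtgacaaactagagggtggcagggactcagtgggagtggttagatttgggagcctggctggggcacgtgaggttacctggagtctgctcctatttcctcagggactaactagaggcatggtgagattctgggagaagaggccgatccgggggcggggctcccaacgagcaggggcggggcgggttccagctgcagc
Pon1: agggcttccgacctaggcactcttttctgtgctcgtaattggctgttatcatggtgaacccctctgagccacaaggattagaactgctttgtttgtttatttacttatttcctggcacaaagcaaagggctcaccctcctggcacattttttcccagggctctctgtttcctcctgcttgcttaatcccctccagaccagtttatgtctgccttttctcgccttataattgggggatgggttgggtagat

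In Lect2 the motif ran from 31 to 26 bases before the start, in Cml2 from 191 to 186 bases before it, and in Tnfrsf19 it ended 196 bases before it. All 3 matches extend to the longer form CTTTGAT. Among all 32851 mouse windows of the same length, 16% held CTTTGA and 3.73% held CTTTGAT, against 3 of these 8 windows for each. The longer form includes the shorter one, so these are not separate matches. GTTAAT, a form of the HNF1 site, stood 78 to 73 bases before the Lect2 start, and 7.1% of all windows hold it. CAAAGTC (a form of the HNF4A site, in 4.44% of all windows) and TATAAA (the TATA box, in 13.6%) were in none of the 8 windows. A match says only that these letters are present, and nothing in these data measured binding there.

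The reads recovered over all genes ran from 33.551 to 54.873 M a tumour, and the drivers overlapped in set 1. In set 2 every p53 tumour (33.551 to 40.754 M) lay below every bcat tumour (luc 41.106 to 48.022 M, lucOS 45.586 to 50.116 M). The part of depth in that contrast was not tested. The values below are the authors' normalised counts, which are not scaled to gene length. Trp53 ran from 3296 to 4994 in bcat and from 1423 to 2280 in p53 tumours of set 1, and from 2631 to 4405 in bcat and from 1345 to 2223 in p53 tumours of set 2, so it was lower in every p53 tumour. All 10 hepatocyte markers (albumin and others) were present in every group. Their summed level was 1308924 to 1875983 in bcat and 700305 to 1074243 in p53 tumours of set 1, without overlap. In set 2 it was 440086 to 1278302 against 490157 to 748818, with overlap. Gene by gene, limma called 2 of 10 higher in luc bcat tumours, 0 of 10 in lucOS bcat tumours of set 1 and 0 of 10 in set 2, and 0 lower. The median log2 differences of the 10 were 0.49, 0.33 and 0.21. Marker lists of other cells were read in the same tumours. The 6 NK and cytotoxic cell markers summed to 22.5 to 58.9 in bcat and 60.7 to 335 in p53 tumours of set 1, and to 27.1 to 97.2 and 329 to 428 in set 2, without overlap in either set. Limma called 2 of 5 tested members lower in luc bcat tumours, 0 of 5 in lucOS bcat tumours of set 1 and 6 of 6 in set 2. Of all genes tested, it called 9.16%, 2.59% and 10.9% lower in these contrasts, and the same shares hold for the lists that follow. The 6 T cell markers summed to 48.7 to 148 in bcat and 110.0 to 582 in p53 tumours of set 1, with overlap, and to 50.2 to 180 and 290 to 726 in set 2, without overlap, and 0, 1 and 5 of 6 were called lower. The 7 bile duct markers summed to 1099 to 4951 in bcat and 2768 to 18729 in p53 tumours of set 1, and to 1216 to 3369 and 2603 to 9196 in set 2, with overlap in both sets, and 2 of 7, 1 of 7 and 1 of 6 members were called lower. The 6 macrophage markers measured summed to 5895 to 12728 in luc bcat and 740.0 to 7360 in luc p53 tumours of set 1, with overlap. Of them 1, 0 and 2 were called higher and 0, 0 and 1 lower. Of 7 endothelial markers 2 were called lower and of 8 stellate cell and fibroblast markers 1 higher, both in set 2 only. No B cell, neutrophil or red blood cell marker was called. Of all genes tested, 5.93%, 1.62% and 6.08% were called higher. No measured marker of the lists with sums was at 0 throughout a group. The lists were chosen with earlier results of these data known, so their counts are not independent of that choice. The part of all these lists in the results was not tested. These are whole tumours, in which fewer cells of a type and less RNA per cell cannot be told apart.

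Per kilobase of transcript the 9 genes differed widely in level. In luc bcat tumours of set 1, the median normalised count per kilobase was 14846 for Gulo, 6944 for Pon1, 6183 for Cml2, 4246 for Lect2, 2677 for Cmbl, 1083 for Laptm4b, 984 for Tbx3, 751 for Rmdn2 and 199 for Tnfrsf19. Gulo lay just above Pon1 in every one of those tumours taken as ranges, its lowest value per kilobase being 10072.5 against 9994 for the highest of Pon1. The ranges of Pon1 and Cml2, of Cml2 and Lect2 and of Lect2 and Cmbl overlapped, as did those of Laptm4b, Tbx3 and Rmdn2. Tnfrsf19, at 126 to 289 per kilobase, lay below all the others.

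**Figure D1:**
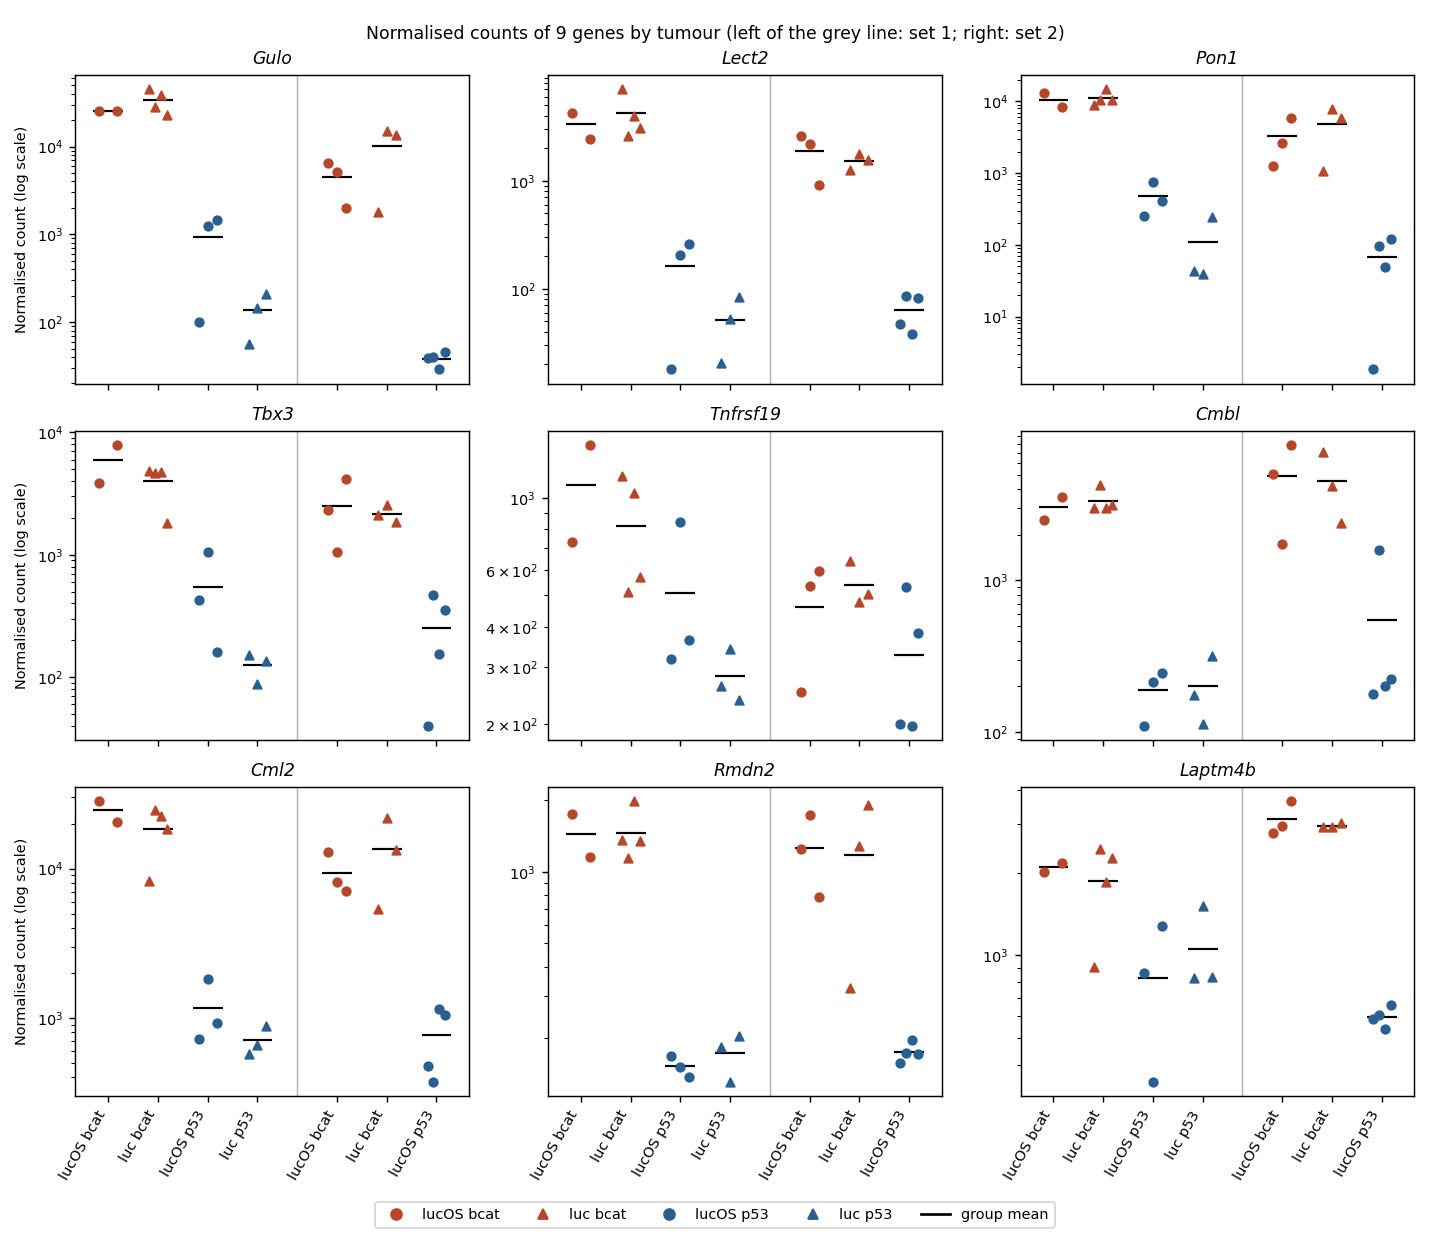
Normalised counts of the 9 genes in every tumour, on log axes, with bcat groups in red, p53 groups in blue, lucOS as circles, luc as triangles and group means as bars. Gulo in set 1 sits between 22794 and 45760 in bcat tumours and between 57.0 and 1453 in p53 tumours, while for Tnfrsf19 the groups overlap.

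Gulo encodes L-gulonolactone oxidase. It lies on the minus strand of chromosome 14 (chr14:65986786-66009207; this and the following gene positions are from the GENCODE annotation of GRCm38, the assembly called mm10). In set 1 it stood at 25490 and 25684 in lucOS bcat tumours, at 45760, 28398, 38795 and 22794 in luc bcat tumours, at 100.1, 1251 and 1453 in lucOS p53 tumours and at 57.0, 145 and 209.8 in luc p53 tumours. In set 2 it stood at 6461, 5183 and 2009 in lucOS bcat tumours, at 1780, 15058 and 13590 in luc bcat tumours and at 39.2, 40.5, 28.9 and 45.2 in lucOS p53 tumours. The bcat tumours lay far above the p53 tumours throughout, and within the p53 tumours of set 1 lucOS tumours 2 and 3 stood apart from the rest. On the scale of log2(normalised count + 1), the bcat minus p53 difference was 8.08 ± 0.79 (SE, limma) in luc tumours and 5.49 ± 0.94 in lucOS tumours of set 1, and 6.71 ± 0.69 in set 2. The lowest bcat value was 15.7 times the highest p53 value in set 1 and 39.4 times in set 2.

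The other enzymes and carriers around vitamin C were followed as background. These genes, and the relatives and partners of the other members below, were chosen with earlier results of these data known. Their p-values are not independent of that choice. Ugdh, which makes the UDP-glucuronic acid that feeds the pathway, rose in bcat tumours in all 3 driver contrasts, by 1.83 (luc, set 1, adjusted p = 0.00549), 2.12 (lucOS, set 1, adjusted p = 0.0193) and 1.49 (set 2, adjusted p = 0.0196) on the log2 scale (limma, Benjamini-Hochberg over all genes). Akr1a1, an aldo-keto reductase that acts between glucuronate and gulonate, rose in set 1 by 0.82 in luc tumours (adjusted p = 0.0216) and 0.95 in lucOS tumours (adjusted p = 0.0489), and was 0.49 in set 2 (adjusted p = 0.101). Rgn, whose product closes the gulonolactone ring just before the Gulo step, rose in luc bcat tumours by 2.13 (adjusted p = 0.0382), with differences of 2.003 (adjusted p = 0.126) and 0.45 (adjusted p = 0.784) in lucOS tumours of set 1 and set 2. Ugp2 and the vitamin C carriers Slc23a1 and Slc23a2 passed in none of the 3 contrasts. Rgn lost its call whenever any 1 luc tumour was left out (adjusted p = 0.0537 to 0.133). Ugdh lost its call in lucOS tumours of set 1 without lucOS bcat tumour 1 or 2 (adjusted p = 0.0845 and 0.0650) or with only the groups compared (0.0794), and in set 2 without lucOS bcat tumour 3 (0.0539) or with JAX tumours alone (0.417). Akr1a1 lost it in luc tumours without luc p53 tumour 1 or 2 or luc bcat tumour 3 (adjusted p = 0.0889, 0.0678 and 0.0555), and in lucOS tumours without lucOS bcat tumour 1 or 2 or lucOS p53 tumour 1 or 3 (0.195, 0.123, 0.0970 and 0.120). The lucOS call of Akr1a1 was kept in 5 of 13 alternatives: it was also lost with 10 in place of 1 added before the logarithm (0.0510), without the filter on low values (0.0577), with median centring (0.0518) and with only the groups compared (0.179). Among all genes tested, limma called 15.1% in luc tumours of set 1, 4.21% in lucOS tumours of set 1 and 17% in set 2, in either direction.

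Lect2 encodes leukocyte cell-derived chemotaxin 2, a protein that hepatocytes release into blood, and is a known β-catenin target of mouse liver. Its place is the minus strand of chromosome 13 (chr13:56542464-56548502). Set 1 gave 4253 and 2428 in lucOS bcat tumours, 7128, 2613, 4010 and 3098 in luc bcat tumours, 17.9, 207 and 258 in lucOS p53 tumours and 20.4, 52.2 and 83.0 in luc p53 tumours. Set 2 gave 2604, 2178 and 904 in lucOS bcat tumours, 1248, 1766 and 1543 in luc bcat tumours and 47.5, 86.5, 37.8 and 82.0 in lucOS p53 tumours. The lowest bcat value exceeded the highest p53 value 9.42 times in set 1 and 10.5 times in set 2, so no tumour crossed over. The difference was 6.42 ± 0.82 in luc and 4.999 ± 0.97 in lucOS tumours of set 1, and 4.83 ± 0.41 in set 2 (log2, SE). Of the receptors reported for LECT2, Met fell by 0.95 in bcat tumours of set 2 (log2, limma, adjusted p = 0.00541), with -0.46 (adjusted p = 0.233) and -0.73 (adjusted p = 0.174) in luc and lucOS tumours of set 1. Tie1 passed in none, and Cd209a, kept only in set 1, did not pass there. The Met call was not kept when set 2 was limited to its JAX tumours (adjusted p = 0.231).

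Pon1 encodes paraoxonase 1, a lactone- and organophosphate-splitting enzyme that the liver secretes and that travels on HDL. The gene sits on the minus strand of chromosome 6 (chr6:5168090-5193946). In set 1, lucOS bcat tumours had 12963 and 8242, luc bcat tumours 8953, 10630, 15121 and 10382, lucOS p53 tumours 257, 754 and 414, and luc p53 tumours 43.5, 38.6 and 243. In set 2, lucOS bcat tumours had 1241, 2670 and 5952, luc bcat tumours 1056, 7812 and 5789, and lucOS p53 tumours 1.83, 97.5, 48.8 and 119. Every bcat tumour was higher than every p53 tumour of its set, and lucOS p53 tumour 1 of set 2, at 1.83, stood for 2 reads. The difference was 7.20 ± 0.57 in luc and 4.58 ± 0.69 in lucOS tumours of set 1 and 6.24 ± 1.25 in set 2 (log2, SE). Without the tumour with 2 reads the set 2 difference was 5.01.

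The paralogues of Pon1, Pon3 (chr6:5220852-5256286) and Pon2 (chr6:5264147-5298455), follow it on the same strand. They stand on the list of partner genes, outside the 9. Pon3 had 2045 and 1352 in lucOS bcat, 1477, 1323, 1290 and 1324 in luc bcat, 397, 546 and 200.6 in lucOS p53 and 61.1, 142 and 199.8 in luc p53 tumours of set 1. Pon2 had 2715 and 1388 in lucOS bcat, 2643, 1493, 2854 and 1529 in luc bcat, 484, 667 and 318 in lucOS p53 and 129, 249 and 364 in luc p53 tumours of set 1. Both genes kept the drivers apart in every tumour of set 1, with a smaller gap than Pon1. In set 2, Pon3 had 653, 804 and 1774 in lucOS bcat, 877, 1147 and 1088 in luc bcat and 85.8, 415, 172 and 159 in lucOS p53 tumours. Pon2 had 928, 1384 and 1399 in lucOS bcat, 913, 1295 and 1296 in luc bcat and 188, 431, 316 and 324 in lucOS p53 tumours of that set. The groups again did not overlap. On the log2 scale, Pon3 rose in bcat tumours by 3.48 ± 0.41 (luc, set 1, adjusted p = 0.000838), 2.24 ± 0.50 (lucOS, set 1, adjusted p = 0.0362) and 2.46 ± 0.50 (set 2, adjusted p = 0.0133; limma). Pon2 rose by 3.16 ± 0.42 (adjusted p = 0.00139), 2.05 ± 0.50 (adjusted p = 0.0468) and 2.01 ± 0.29 (adjusted p = 0.00449) in the same contrasts. The lucOS calls of set 1 were lost for both without lucOS bcat tumour 1 or 2 or without lucOS p53 tumour 1 or 3 (adjusted p up to 0.199), and with only the groups compared, and for Pon2 also with no filter on low values. With set 2 limited to JAX tumours, which leaves 1 p53 tumour assumed to vary like the rest, Pon3 had adjusted p = 0.197 and Pon2 0.145. Apoa1, the main HDL protein, and Lcat, the HDL enzyme that esterifies cholesterol, passed in none of the 3 contrasts.

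**Figure D2:**
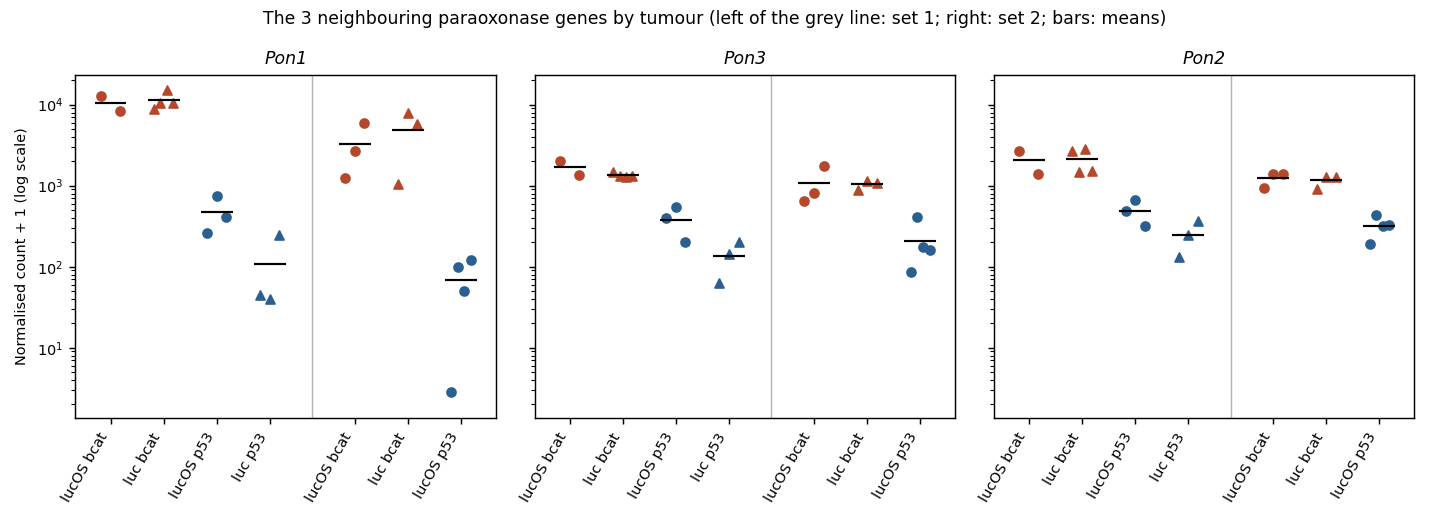
Normalised counts plus 1 of Pon1, Pon3 and Pon2, neighbours on chromosome 6, in every tumour on a shared log axis; red marks bcat, blue p53, circles lucOS, triangles luc and bars group means. The bcat tumours lie above the p53 tumours for all 3 genes in both sets, and the gap is widest for Pon1, where 1 p53 tumour of set 2 had 1.83 before 1 was added.

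Tbx3 encodes a T-box transcription repressor that hepatoblasts need for growth. The gene sits on the plus strand of chromosome 5 (chr5:119670669-119684724), where exons of the antisense gene Tbx3os1 overlap it. Whether the counting kept strand is not stated, so reads of the pair cannot be told apart. Set 1 values were 3869 and 7942 in lucOS bcat, 4804, 4637, 4768 and 1811 in luc bcat, 424, 1050.5 and 160.1 in lucOS p53 and 151, 87.4 and 136 in luc p53 tumours. Set 2 values were 2302, 1047 and 4143 in lucOS bcat, 2102, 2537 and 1868 in luc bcat and 40.2, 465, 154 and 356 in lucOS p53 tumours. The drivers did not overlap, but the margin was narrow: the lowest bcat tumour had 1.72 times the highest p53 tumour in set 1 and 2.25 times in set 2. The differences were 4.93 ± 0.57 (luc) and 3.74 ± 0.69 (lucOS) in set 1 and 3.58 ± 0.76 in set 2 (log2, SE). Other T-box genes did not share 1 direction. Tbx2 fell by 1.09 in luc bcat tumours (limma, adjusted p = 0.0450) but kept its call in only 4 of 15 alternatives, missing it under TMM scaling (adjusted p = 0.0904), median centring (0.0686), edgeR (0.0972) and no filter on low values (0.0586), and Tbx1 rose by 3.67 in set 2 (adjusted p = 0.0458) while it was -1.72 (adjusted p = 0.277) in lucOS tumours of set 1. The Tbx2 call was also lost without any 1 luc tumour (adjusted p = 0.0600 to 0.118), and the Tbx1 call without any lucOS tumour of set 2 except bcat tumour 2 (0.0721 to 0.143), with no filter (0.0511) and with JAX tumours alone (0.612). Tbx1 was near the floor. In set 2 it had 108.4, 4.98 and 78.2 in lucOS bcat and 0.91 to 2.76 in lucOS p53 tumours, the latter no more than 3 reads each. In set 1 it had 3.07 and 0 in lucOS bcat and 10.7, 1.99 and 7.36 in lucOS p53 tumours. Tbx20 passed in none, and Tbx4 and Tbx5 were too low to test.

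Tnfrsf19, also called Troy, encodes a TNF receptor family member that marks Wnt-driven stem cells of the intestine. It lies on the minus strand of chromosome 14 (chr14:60963875-61046490). It had 729 and 1464 in lucOS bcat, 1171, 511, 1040.1 and 569 in luc bcat, 317, 845 and 364 in lucOS p53 and 262, 343 and 238 in luc p53 tumours of set 1. It had 251, 534 and 593 in lucOS bcat, 639, 479 and 504 in luc bcat and 199.9, 531, 198 and 384 in lucOS p53 tumours of set 2. Tumours of both drivers overlapped in each set, with 3 of 6 bcat tumours above the highest p53 tumour in set 1 and 3 of 6 in set 2. In luc tumours of set 1 alone the drivers were apart. The differences were the smallest of the 9 genes in lucOS tumours: 1.47 ± 0.42 (luc) and 1.16 ± 0.50 (lucOS) in set 1 and 0.52 ± 0.41 in set 2, where the 95% interval ran from -0.40 to 1.44. Its relative Eda2r, the receptor of the ectodysplasin form EDA-A2, showed a wider gap. Eda2r had 236, 480 with 574 and 475 in luc bcat and 0, 23.8 and 29.2 in luc p53 tumours, and rose by 5.53 (limma, adjusted p = 0.00759), a fitted value that depends on the added 1 because 1 tumour was listed at 0. Eda2r also rose in set 2, by 4.33 (adjusted p = 0.00228), with 3.52 (adjusted p = 0.115) in lucOS tumours of set 1, and Tnfrsf21 and Ngfr passed in none of the 3 contrasts. With JAX tumours alone the set 2 difference of Eda2r was 3.82 (adjusted p = 0.247).

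Cmbl encodes a carboxymethylenebutenolidase homologue, a cytosolic hydrolase that in humans activates an ester prodrug. Its place is the plus strand of chromosome 15 (chr15:31565389-31590119). Set 1 tumours had 2509 and 3584 (lucOS bcat), 3030 with 4289, 3034 and 3150 (luc bcat), 110 with 212 and 243 (lucOS p53) and 174 with 112 and 317 (luc p53). Set 2 tumours had 5069, 1739 and 7904 (lucOS bcat), 7079, 4199 and 2416 (luc bcat) and 177, 1594, 202 and 223 (lucOS p53). In set 1 the drivers were 7.92 times apart at their closest, but in set 2 only 1.09 times, because lucOS p53 tumour 2 stood near the lowest bcat tumour. The differences were 4.18 ± 0.37 (luc) and 4.06 ± 0.44 (lucOS) in set 1 and 3.61 ± 0.79 in set 2 (log2, SE). Without that p53 tumour the set 2 difference was 4.36.

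Cml2, now named Nat8f2, belongs to the camello-like group of putative acetyltransferases. It lies on the minus strand of chromosome 6 (chr6:85865422-85869158) among its relatives, and 17.9% of the stretches of 50 bases in its transcript occur also in Nat8f4, so its split from that copy is uncertain. It had 28477 and 20577 (lucOS bcat), 8245, 24561, 22415 and 18406 (luc bcat), 719.5, 1835 and 929.5 (lucOS p53) and 569, 662 and 889 (luc p53) in set 1. In set 2 it had 12891, 8129 and 7112 (lucOS bcat), 5379, 21819 and 13234 (luc bcat) and 480.0, 374, 1155 and 1050.3 (lucOS p53). The closest tumours of opposite drivers were 4.49 times apart in set 1 and 4.66 times in set 2. The differences were 4.61 ± 0.40 (luc), 4.50 ± 0.48 (lucOS) and 3.73 ± 0.52 (set 2). None of the measured relatives passed: Cml1 was 1.08, 1.23 and 0.96 (adjusted p = 0.0970, 0.161 and 0.0577) and Nat8 was -3.29, -2.14 and -1.98 (adjusted p = 0.0634, 0.351 and 0.259) in the same order.

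Rmdn2 encodes regulator of microtubule dynamics 2, on the plus strand of chromosome 17 (chr17:79611863-79693192). Its set 1 values were 1741 and 1149 (lucOS bcat), 1363, 1142, 1986 and 1344 (luc bcat), 169, 151 and 138 (lucOS p53) and 185, 132 and 204 (luc p53). Its set 2 values were 1244, 1735 and 783 (lucOS bcat), 326, 1284 and 1913 (luc bcat) and 157, 173, 196 and 172 (lucOS p53). The p53 tumours of both sets kept to a narrow band, and luc bcat tumour 1 of set 2 was the bcat tumour nearest to it, at 1.66 times the highest p53 value. The differences were 3.06 ± 0.26 (luc), 3.21 ± 0.32 (lucOS) and 2.77 ± 0.52 (set 2). Of its paralogues, Rmdn1 rose by 0.80 in set 2 (limma, adjusted p = 0.0485), with 0.78 (adjusted p = 0.101) and 0.59 (adjusted p = 0.349) in luc and lucOS tumours of set 1, and Rmdn3 passed in none. Rmdn1 lost its call when any of 6 of the 7 lucOS tumours of set 2 was left out, with no filter (0.0568) and with only the groups compared (0.0819), and its difference was 0.33 with JAX tumours alone.

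Laptm4b encodes a lysosomal membrane protein that is often abundant in human liver cancer. It lies on the plus strand of chromosome 15 (chr15:34238028-34284302), and 3.99% of its stretches of 50 bases occur also in Gm6705. It had 2010.0 and 2175 (lucOS bcat), 904, 2440.0, 1853 and 2268 (luc bcat), 864, 348 and 1274 (lucOS p53) and 824, 1515 and 837 (luc p53) in set 1. It had 2778, 2948 and 3650.1 (lucOS bcat), 2920, 2928 and 3018 (luc bcat) and 586, 608, 538 and 661 (lucOS p53) in set 2. The drivers overlapped in set 1, where luc bcat tumour 1 fell among the p53 tumours, and were 4.21 times apart at their closest in set 2. The differences were 0.78 ± 0.45 (luc) and 1.52 ± 0.54 (lucOS) in set 1 and 2.38 ± 0.14 in set 2 (log2, SE). In set 2 it had the tightest groups of the 9 genes, with an SD within groups of 0.15 among bcat and 0.12 among p53 tumours on the log2 scale. Its relatives Laptm4a and Laptm5 passed in none of the 3 contrasts.

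**Figure D3:**
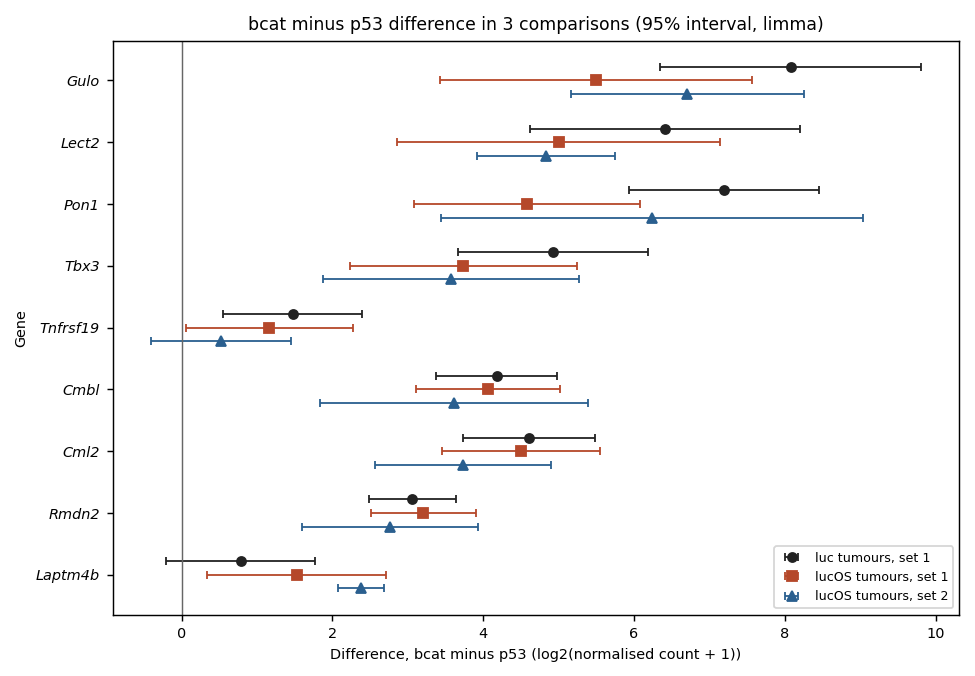
Difference between bcat and p53 tumours for each gene on the log2(normalised count + 1) scale, with 95% intervals from limma, in luc tumours of set 1, lucOS tumours of set 1 and lucOS tumours of set 2. Gulo is largest in all 3, from 5.49 to 8.08, and the intervals of Laptm4b in luc tumours and of Tnfrsf19 in set 2 include 0.

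Across the 9 genes, bcat and p53 groups did not overlap for 8 of 9 in luc tumours of set 1 (all but Laptm4b), for 8 of 9 in lucOS tumours of set 1 and for 8 of 9 in set 2 (all but Tnfrsf19 in both). Of all genes tested, 10.9%, 13.5% and 10.3% had bcat groups wholly above p53 groups in these contrasts, and 23.2%, 24.3% and 22.5% had them wholly below. Taking all bcat against all p53 tumours, 7 of 9 stood apart in set 1 and 8 of 9 in set 2, against 4.71% and 7.14% of all genes. The genes were picked on these contrasts, so the counts only describe them. Their median difference was 4.61 (luc, set 1), 4.06 (lucOS, set 1) and 3.61 (set 2), where the median of all genes was -0.20, -0.15 and -0.16. Under TMM scaling, which by its construction brings the bulk of genes near 0, those medians were -0.012, -0.00084 and -0.011. With the deposited values, limma called 956 genes higher and 1475 lower (luc, set 1), 261 and 417 (lucOS, set 1) and 950 and 1706 (set 2), and with TMM scaling 1227 and 679, 326 and 203, and 1295 and 1054. Among the JAX tumours of set 2, with 1 p53 tumour, the differences ran from 0.16 (Tnfrsf19) to 6.46 (Gulo), with 4.50 for Pon1, 2.59 for Tbx3 and 4.20 for Cmbl.

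The known targets of the pathway were read in the same contrasts. The lists used here were chosen with earlier results of these data known, so their counts and p-values are not independent of that choice. Of 12 Wnt feedback and target genes, 7 of 12, 3 of 12 and 5 of 11 tested rose in luc tumours of set 1, lucOS tumours of set 1 and set 2. Axin2, the pathway's feedback brake, rose by 6.82, 4.04 and 6.28 (limma, adjusted p = 0.000124, 0.0145 and 0.000271), and Notum, which inactivates Wnt ligands, by 8.36, 5.50 and 6.05 (adjusted p = 0.000124, 0.00999 and 0.0116). Of 10 pericentral hepatocyte genes, 9, 3 and 4 rose, Cyp2e1 in all 3 contrasts by 7.11, 4.94 and 9.92 (adjusted p = 1.1e-05, 0.00115 and 0.00121). Glul, glutamine synthetase, rose by 3.79 in luc tumours (adjusted p = 0.000917), with 1.14 (adjusted p = 0.244) and 0.61 (adjusted p = 0.134) in the others. Of 10 periportal genes 1 rose and 2 fell in luc tumours, 1 fell in lucOS tumours of set 1 and 1 rose in set 2. Over the 30 partner genes of the 9, 6 rose and 1 fell of 27 tested in luc tumours, 4 rose of 27 in lucOS tumours of set 1, and 6 rose and 1 fell of 25 in set 2. Of all genes tested, 5.93%, 1.62% and 6.08% rose and 9.16%, 2.59% and 10.9% fell. Calls of the Wnt, pericentral and periportal lists were not rerun under other processing or without single tumours.

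The genes were not picked on the antigen contrast, lucOS against luc tumours of the same driver. The driver contrasts they were picked on share its tumours, so its p-values for them are not independent of that choice. In p53 tumours of set 1, Pon1, Tbx3 and Gulo stood higher with lucOS, but none of them passed the threshold over all genes. The values are those given above: for Pon1 and Tbx3 all 3 lucOS p53 tumours lay above all 3 luc p53 tumours, and for Gulo lucOS p53 tumour 1 lay within the luc range while lucOS p53 tumours 2 and 3 lay far above it. In limma the lucOS minus luc difference was 2.52 for Pon1 (95% interval 1.17 to 3.86, unadjusted p = 0.00163), 1.76 for Tbx3 (0.42 to 3.11, unadjusted p = 0.0146) and 2.23 for Gulo (0.38 to 4.08, unadjusted p = 0.0224), each with an adjusted p of 0.952. With other processing the adjusted p ran from 0.172, 0.125 and 0.0736 for Pon1, Tbx3 and Gulo (DESeq2) up to 0.972. Leaving out 1 tumour in limma, it ran from 0.119, 0.483 and 0.294 up to 0.9997. So 2 of 9 genes stood wholly above, where 4.63% of all genes did and 5.07% stood wholly below. Limma called 0 of 16108 genes here, with 722 at an unadjusted p under 0.05, while edgeR called 0 and DESeq2 9, none of them among the 9 genes. Lect2 was 1.14 (-0.78 to 3.05), Tnfrsf19 0.73, Cml2 0.62, Cmbl -0.04, Rmdn2 -0.16 and Laptm4b -0.48. Without lucOS p53 tumour 1 the Gulo difference was 3.47, with an adjusted p of 0.294 (limma).

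Of the 12 Wnt feedback and target genes and the 10 pericentral genes, limma called 0 in this contrast, each with an adjusted p of 0.952 or more. Their median differences were 0.96 and 0.86, where the median of all genes was -0.0012. The values of 4 of them, chosen after they were seen, follow. Axin2 had 29.5, 103 and 100.3 in lucOS p53 tumours 1 to 3, against 12.2, 19.3 and 14.6 in luc p53 tumours, and Notum had 14.3, 49.8 and 116 against 12.2, 7.94 and 17.7. For both, lucOS p53 tumours 2 and 3 were the highest, as they were for Gulo and Lect2. Glul did not share this order, with 17818, 9538 and 7592 in lucOS p53 and 5823, 7802 and 7960 in luc p53 tumours. Cyp2e1 had 2429, 2468 and 3896 in lucOS p53 and 391, 1178 and 1292 in luc p53 tumours. The 10 hepatocyte markers summed to 857615 to 981020 in lucOS p53 and 700305 to 1074243 in luc p53 tumours, with overlap, and the 6 macrophage markers to 4659 to 9417 and 740.0 to 7360, with overlap. The part of these genes and markers in the differences was not tested.

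In bcat tumours none of the 9 genes passed the threshold in the antigen contrast. Differences ran from -0.36 (Gulo) to 0.57 (Tbx3) in set 1 and from -0.81 (Gulo) to 0.36 (Rmdn2) in set 2, and lucOS and luc tumours overlapped for all 9 genes in both sets. Of all genes tested, 3.4% stood wholly above and 2.95% wholly below in lucOS bcat tumours of set 1, and 2.18% and 2.36% in set 2. The intervals were wide, from -2.32 to 1.61 for Gulo in set 1 and from -3.42 to 2.57 for Pon1 in set 2, and include differences of several fold in either direction. For Laptm4b in set 2 the interval was narrow, from -0.26 to 0.40. Limma called 0 of 16108 genes in set 1 and 0 of 15625 in set 2, with 222 and 288 at an unadjusted p under 0.05, edgeR called 0 in both, and DESeq2 called 18 and 10. The antigen difference in bcat tumours minus that in p53 tumours of set 1 was -2.62 for Pon1 (unadjusted p = 0.0134, adjusted p = 0.9998, limma) and -2.58 for Gulo (unadjusted p = 0.0586). This contrast called 0 genes in limma and edgeR and 17 in DESeq2, with 436 at an unadjusted p under 0.05 in limma, and it shares its tumours with the driver contrasts.

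**Figure D4:**
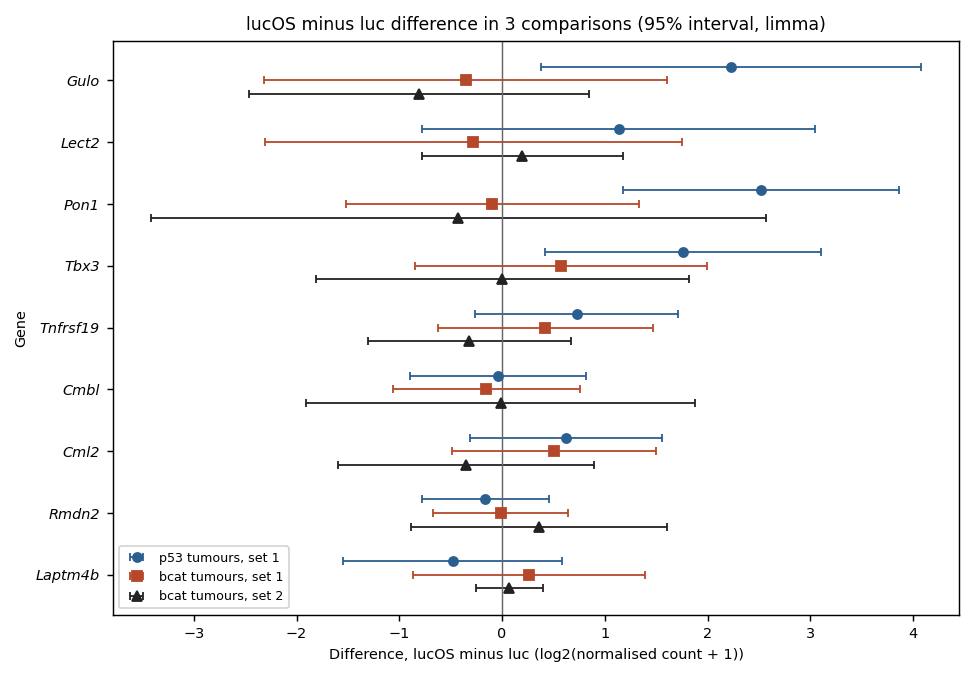
Difference between lucOS and luc tumours for each gene on the log2(normalised count + 1) scale, with 95% intervals from limma, in p53 tumours of set 1 and in bcat tumours of set 1 and set 2. The intervals of Gulo, Pon1 and Tbx3 in p53 tumours lie above 0, at 2.23, 2.52 and 1.76, and all intervals in bcat tumours include 0.

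The 9 genes did not vary as 1 block among bcat tumours. After subtracting each group's mean, the 36 pairs of genes had Pearson correlations from -0.80 to 0.88 over 12 bcat tumours, with a median of -0.07, and 17 pairs were above 0. Lect2 and Laptm4b ran opposite to each other (r = -0.79, Spearman's rho = -0.88), with r = -0.91 in set 1 and -0.94 in set 2. In an exact permutation of tumours within groups, two-sided over 1728 arrangements, this pair had p = 0.00231 for r and 0.00637 for rho (adjusted over the 36 pairs 0.0556 and 0.0990), and r was -0.80 without the pair of tumours farthest from the median of Lect2. Cmbl and Rmdn2 also ran opposite (r = -0.80, rho = -0.85; exact permutation p = 0.00463 and 0.00868, adjusted 0.0556 and 0.0990), with -0.80 in each set and -0.89 without the farthest pair. Gulo and Lect2 went together (r = 0.60, rho = 0.62; exact permutation p = 0.00405 and 0.0081, adjusted 0.0556 and 0.0990), with 0.74 in set 1, 0.68 in set 2 and 0.55 without the farthest pair. No pair passed after adjustment, and 7 pairs had an unadjusted p under 0.05.

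The highest correlation, Gulo with Rmdn2 (r = 0.88, rho = 0.78), came mainly from set 2, where r was 0.94 against 0.34 in set 1, and its exact permutation p was 0.0498 and 0.0446 (adjusted 0.229 and 0.321). It was 0.64 without the pair of tumours farthest from the median of Gulo. The tumours behind it can be seen in the values: luc bcat tumour 1 of set 2 was the lowest bcat tumour of its set for Gulo (1780), Pon1 (1056), Cml2 (5379) and Rmdn2 (326), yet high for Cmbl (7079). Likewise lucOS bcat tumour 3 had low Gulo (2009), Lect2 (904) and Rmdn2 (783) and the highest Cmbl (7904) and Tbx3 (4143) of set 2. Albumin (Alb), the main hepatocyte product, was 97958 in the luc bcat tumour and 139398 in the lucOS bcat tumour, while the other bcat tumours of set 2 had 76238, 267776, 502271 and 535727. Over the 12 bcat tumours Alb had r = -0.85 with Cmbl (rho = -0.75; exact permutation p = 0.0689 and 0.0527, adjusted over 9 genes 0.484 and 0.414) and 0.71 with Rmdn2 (rho = 0.69; exact permutation p = 0.108 and 0.0920, adjusted 0.484 and 0.414). In set 1 alone these were -0.13 and -0.13, and without the pair of tumours farthest from the median of each gene they were -0.84 and 0.43.

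**Figure D5:**
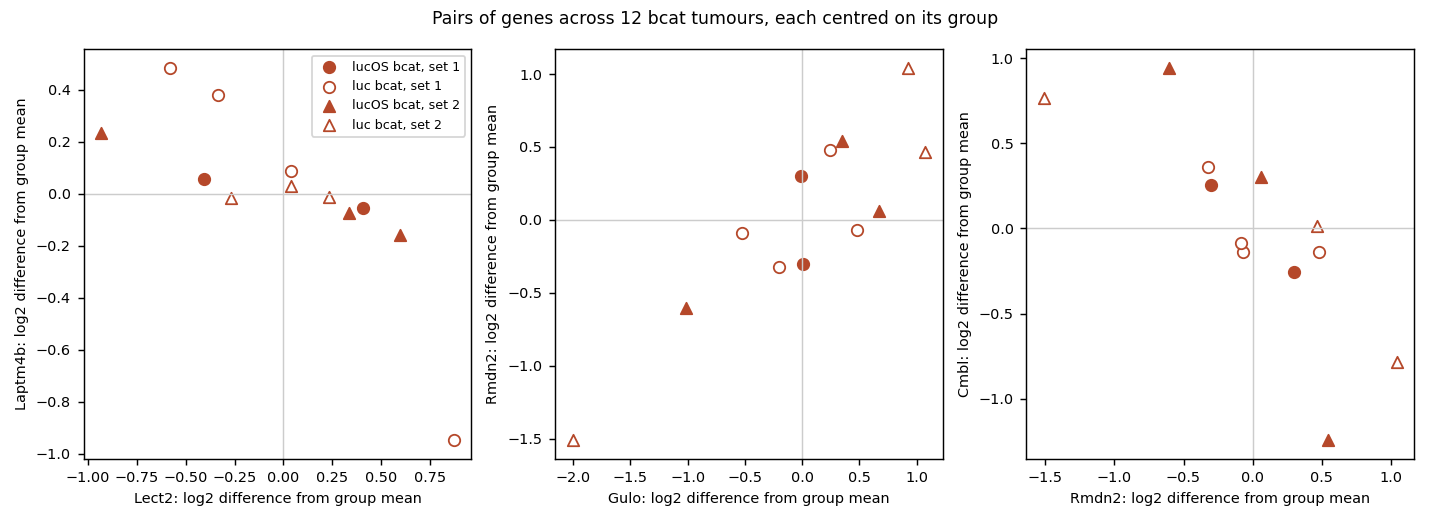
Log2 differences from the group mean for 3 pairs of genes in 12 bcat tumours, with circles for set 1, triangles for set 2, filled points for lucOS and open points for luc. Laptm4b falls as Lect2 increases (r = -0.79), Rmdn2 increases with Gulo (r = 0.88) and Cmbl falls as Rmdn2 increases (r = -0.80).

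Among the 10 p53 tumours, where the genes were low, 23 of the 36 pairs had r above 0, with a median of 0.28. Gulo and Lect2 kept together here too (r = 0.98, rho = 0.95; exact permutation p = 0.00231 and 0.00463 over 864 arrangements, adjusted 0.0833 and 0.167), with 0.999 in set 1, 0.84 in set 2 and 0.93 without the farthest pair. The spread of single genes within p53 groups was large for Pon1 in set 2, with an SD of 2.50 on the log2 scale that 99.4% of genes stayed below, and for Gulo in set 1, with 1.67 and 95.2%. The SD of Pon1 includes lucOS p53 tumour 1 of set 2, whose value of 1.83 stood for 2 reads. Rmdn2 was steady in p53 tumours, with an SD of 0.25 in set 1 and 0.13 in set 2, below the median of all genes of 0.44 and 0.28.

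Over all tumours of a set, the genes most like each member were searched among 14948 genes by the lower of the Pearson correlations in set 1 (12 tumours) and set 2 (10 tumours). Because drivers differ so much, these values mostly follow the split between drivers. Gulo was most like Ephx1 (0.97 in set 1 and 0.97 in set 2) and Lgr5 (0.97 and 0.95), and Lect2 most like Lgr5 (0.97 and 0.97) and Aqp9 (0.96 and 0.96). Pon1 was most like its neighbour Pon2 (0.96 and 0.98) and Cyp2d9 (0.95 and 0.97). Cmbl was most like Notum (0.96 and 0.98) and Tmem120a, Tbx3 most like Slc11a2 and Acad11, and Cml2 most like Ces1b and Rdh9. Rmdn2 was most like Chac2 and Stard10, Laptm4b like Kdm5b and Acot1, and Tnfrsf19, with the lowest values of the 9, like Atg9a (0.86 and 0.85) and Akip1 (0.85 and 0.83).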

How the data were processed

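RNA of whole liver tumours was purified with Trizol, DNase and columns and made into TruSeq libraries, per the labels' protocols. The submitters' processing notes name TopHat2, featureCounts, DESeq2 and mm10; versions and options are not given in the sources used here. The values are signal tables the authors deposited, 1 per set, in which each value is a read count divided by 1 factor per tumour: 100% of values were whole multiples of the smallest step within a tolerance of 0.01 reads. For lucOS p53 tumour 2 of set 1 and lucOS p53 tumour 3 of set 2 that step is just under 1. The sets were scaled separately, so tests stay within a set. No other column of per-sample values was present.

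Set 1 listed 33068 RefSeq transcripts, of which the one highest on average was taken for each gene. Symbols turned into dates were restored in set 1 (53) and left out in set 2 (27). Genes needed a value of 10 or more in 2 (set 1, 16108 genes) or 3 tumours (set 2, 15625 genes), which all 9 genes passed. Main tests used limma 3.58.1 (R 4.3.3) with a mean-variance trend on log2(value + 1). Each set had a single model with all its groups; p-values were adjusted by Benjamini-Hochberg over the genes kept and called under 0.05. The reads recovered from these values were used with edgeR 4.0.16 and DESeq2 1.42.0 as alternatives. The procedure was first tested on simulated data. Fold changes on this scale understate changes of low genes. Intervals cover the spread between tumours only.

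The 9 genes, partner lists and marker lists were chosen with earlier results of these data known. Tumours are numbered within a group in the order of deposit. All 9 genes were described in full; partner genes were named where called and otherwise by the lowest adjusted p, up to 4 a list. Promoters are RefSeq sequences of GRCm38.p6.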

Additional observations from a re-analysis of the deposited data

Results flagged for a closer look

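Of 18 groups of 4 tumours (9 genes in luc bcat tumours of set 1 and in lucOS p53 tumours of set 2), 3 held a tumour whose gap to the nearest other, as a share of the group's range, exceeded Dixon's 95% limit of 0.829. Chance gives this in about 1 in 20 groups. Cmbl stood at 4289 in luc bcat tumour 2 of set 1, while the others lay between 3030 and 3150 (share 0.905). Cmbl stood at 1594 in lucOS p53 tumour 2 of set 2, while the others lay between 177 and 223 (share 0.967), and this tumour alone brought the drivers to within 1.09 times of each other. Tbx3 stood at 1811 in luc bcat tumour 4 of set 1, while the others lay between 4637 and 4804 (share 0.944).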

How the results depend on the processing

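All 9 genes kept a higher level in bcat tumours under every alternative run in the driver contrasts. By size, 2 genes moved by more than their own SD within the groups compared. Rmdn2 in lucOS tumours of set 1 was 2.91 and 3.51 without lucOS bcat tumour 1 or 2, against 3.21. Laptm4b in set 2 was 2.54 with DESeq2, against 2.38. Genes with a wider spread could shift further and stay within this limit. With JAX tumours alone, Pon1 in set 2 was 4.50 against 6.24 (SD 2.07), and Tbx3 was 2.59 against 3.58 (SD 1.37). The counts of genes called moved more. In lucOS tumours of set 1, limma called 678 genes, against 418 with edgeR, 2031 with DESeq2 and 19 with only the groups compared, and 76 to 953 when 1 tumour was left out (209 without lucOS p53 tumour 1, 219 without tumour 3, 121 and 76 without lucOS bcat tumour 1 or 2). In luc tumours of set 1 the count was 2431, and 812 to 1968 without 1 tumour (812 and 976 without luc p53 tumour 1 or 2, 1605 and 1209 without luc bcat tumour 2 or 3). In set 2 it was 2656, with 27 in JAX tumours alone and 1148 to 2228 without 1 tumour (1260, 1750 and 1148 without lucOS p53 tumour 1, 2 or 3, 1200 without lucOS bcat tumour 3). Counts of 0 in the antigen contrasts became 9 (p53 tumours), 18 (bcat, set 1), 10 (bcat, set 2) and 17 (difference of the antigen effects) with DESeq2, 1 in bcat tumours of set 1 with no filter, and stayed 0 without any 1 tumour. The causes were not tested.

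Small antigen differences changed sign. Cmbl in bcat tumours of set 2 was 0.11 with edgeR and 0.11 with DESeq2, against -0.01. Leaving out 1 tumour at a time, the ranges that crossed 0 were, in p53 tumours, -0.39 to 0.35 for Cmbl and -0.89 to 0.048 for Laptm4b. In bcat tumours of set 1 they were -0.41 to 0.10 for Cmbl, -0.055 to 0.42 for Laptm4b, -0.68 to 0.12 for Lect2, -0.42 to 0.23 for Pon1, -0.31 to 0.29 for Rmdn2 and -0.081 to 0.92 for Tnfrsf19. In bcat tumours of set 2 they were -0.49 to 0.61 for Cmbl, -0.91 to 0.10 for Cml2, -0.046 to 0.15 for Laptm4b, -0.10 to 0.66 for Lect2, -1.31 to 0.14 for Pon1, -0.40 to 0.88 for Rmdn2, -0.47 to 0.52 for Tbx3 and -0.55 to 0.070 for Tnfrsf19. For the difference of the antigen effects they were -0.50 to 0.24 for Cmbl, -0.46 to 0.27 for Cml2, -0.15 to 0.45 for Rmdn2 and -0.81 to 0.20 for Tnfrsf19.

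No paired analysis was possible because the labels number no replicates across groups, and the tumour numbers used here only name samples. The alternatives for partner genes were chosen after seeing the data. Calls of the Wnt, pericentral, periportal and other marker lists were not rerun under the alternatives.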
